A study of Sus scrofa with 16 samples.

Results

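The NADPH oxidases and dual oxidases are the enzymes by which epithelial cells and phagocytes make superoxide and hydrogen peroxide. The genes DUOX1, DUOX2, DUOXA2, NOX1, CYBA, CYBB, NCF1 and NCF4 were read in colonic mucosa and liver of pigs. They were chosen from results of these data, in which a DUOX1 probe had stood out between the diets in the colon. A probe belonged to them when the array's annotation gave the gene as its name or held it in brackets in its description. By this rule 12 of the 43603 probes were found, and they came from 5 of the 8 genes (DUOX1 with 2 probes, DUOX2 with 4, DUOXA2 with 3, CYBA with 2 and NCF1 with 1). A further 4 probes stood for the other 3 genes under another name. The NOX1 probe was matched through its accession, both CYBB probes were named GP91-PHOX in the annotation, and the NCF4 probe was described only as a relative of the bovine gene. All 16 probes are described, and counts are given for the 12 probes of the rule unless stated.

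The arrays came from barrows (castrated male pigs) of the Duroc × Landrace × Large White cross, aged 170 days. Each tissue had 4 samples per diet, and every sample had its own array. The control diet (CS) held purified corn starch, at 230 g/kg in the growing diet and 280 g/kg in the finishing diet given from an age of 120 days, and the RPS diet held raw potato starch in its place. Both diets were fed for 100 days. Each of the 4 groups was hybridized on a slide of its own, which means that the slide and the diet cannot be told apart. No slide held both tissues, so the slide and the tissue cannot be told apart either. Raw potato starch is a resistant starch, and the comparison asked how its long intake bears on gene expression in the gut and the liver.

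The share of probes above background, as the scanner software judged it, was 64.9% to 72.2% on colonic and 61.1% to 65.9% on liver arrays. In the colon it was 68.8% to 72.2% with CS and 64.9% to 68.1% with RPS. The median signal before normalization was 56.3 to 70.8 on colonic CS arrays and 34.2 to 42.5 on colonic RPS arrays. The part of this brightness in the diet differences was not tested. The tissue labels fitted their markers: all 34 probes of 7 hepatocyte genes were lower in colon than in liver (median log2 difference -16.06), and 27 of 29 probes of 8 epithelial genes were higher (median 7.56). The colonic arrays CS 3 and RPS 2 stood apart from the other 6 in B cell and epithelial markers. Their B cell marker genes (MS4A1, CD79A and PAX5) had mean log2 signals of 10.24 and 9.94, against 5.61 to 8.32 on the others. Their epithelial marker genes (8 of 11 on the array) had means of 12.5 and 13.1, against 14.1 to 14.5. Surface colonocyte markers were low on CS 3 (10.62), RPS 2 (11.48) and also RPS 4 (11.69), against 13.26 to 14.43 on the others. Smooth muscle markers had summed signals of 27679 to 30074 with CS and 17677 to 23319 with RPS. The part of these cells in the oxidase values was not tested. Colonic differences are given with and without CS 3 and RPS 2 where leaving them out moved the value.

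DUOX1 and DUOX2 encode the dual oxidases, which sit in the apical membrane of epithelial cells and release hydrogen peroxide to the outside. DUOXA1 and DUOXA2 encode the maturation factors that bring DUOX1 and DUOX2 out of the endoplasmic reticulum, and the 4 genes follow one another in the RefSeq gene order of the pig genome (Sscrofa11.1), as DUOX1, DUOXA1, DUOXA2 and DUOX2. NOX1 is a superoxide-forming oxidase of the colonic epithelium. CYBB encodes gp91phox, the catalytic subunit of the oxidase of phagocytes, CYBA encodes p22phox, the membrane partner that CYBB and NOX1 share, and NCF1 and NCF4 encode p47phox and p40phox, cytosolic subunits that join the complex when phagocytes are activated.

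The sequences of the probes limit what can be read from DUOX1, because it is a close paralog of DUOX2. The pair of probes nearest to each other in sequence is shown here, with the bases that are identical after alignment in capitals. DUOX1 A_72_P539698 begins at base 4292 of its transcript and DUOX2 A_72_P773667 at base 4318, as the array's annotation gives them.
DUOX1 A_72_P539698: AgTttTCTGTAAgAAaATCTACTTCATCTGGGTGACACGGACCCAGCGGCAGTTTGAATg
DUOX2 A_72_P773667: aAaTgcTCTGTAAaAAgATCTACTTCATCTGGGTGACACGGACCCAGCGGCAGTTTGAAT

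Of 59 aligned bases 54 were identical (91.5%), with an unbroken run of 43, so signal at either probe may come from both transcripts and is reported as uncertain. The other DUOX1 probe, A_72_P302634, lies further along the transcript (base 4665), where the nearest DUOX2 probe, A_72_P444501 (base 4683), differs from it at 12 of 51 aligned bases (76.5% identical) and the longest shared run is 12 bases.
DUOX1 A_72_P302634: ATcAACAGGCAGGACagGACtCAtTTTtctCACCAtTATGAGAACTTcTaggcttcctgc
DUOX2 A_72_P444501: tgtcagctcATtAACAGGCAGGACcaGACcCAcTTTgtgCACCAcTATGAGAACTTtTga

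The 2 CYBA probes were related in another way. CYBA A_72_P306223, designed on a sequence tag, is over all 60 bases the reverse complement of CYBA A_72_P035581, so the 2 probes capture opposite strands and only A_72_P035581 reads the strand of the CYBA transcript. The first 30 bases of the sense probe and the last 30 of the other, which pair with them, are shown in capitals.
CYBA A_72_P035581: CTGTCATCTTTCTAGGGGGCCTTGGGGTCT
CYBA A_72_P306223: AGACCCCAAGGCCCCCTAGAAAGATGACAG

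Among all 43603 probes, no other probe shared a run of 20 bases with any of the 16 on either strand.

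In the colon, DUOX1 at A_72_P302634 was the only one of the 12 probes past both thresholds of the study (unadjusted p under 0.05 and fold above 1.5), and all 9 probes of DUOX1, DUOX2 and DUOXA2 were lower with RPS. Over all probes, 2.94% passed both thresholds in the colon, 1.32% in the direction lower with RPS, and 0% (0 of 43603) at an adjusted p under 0.05 (limma). Because the genes were chosen with this contrast known, its values are a description and carry no test.

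The log2 signals of DUOX1 A_72_P302634, quantile normalized over the 8 colonic arrays, were 7.90, 7.09, 6.02 and 6.05 with CS, and 5.21, 3.38, 5.19 and 5.28 with RPS. Every RPS array lay below every CS array, and RPS 2 lay far below the others of its group. The difference was -2.003 ± 0.59 (SE, n = 4 per diet), a 4.01-fold lower signal. It was -1.78 without CS 3 and RPS 2, -1.54 without RPS 2 alone, -1.62 without CS 1 and -2.25 without CS 3. With another background correction (normexp) it was -0.95. Over all probes, the diet groups were apart in this direction at 1.43%.

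The second DUOX1 probe, A_72_P539698, disagreed in that its groups overlapped. Its log2 signals were 7.43, 6.50, 4.30 and 5.39 with CS and 5.24, 3.60, 6.18 and 5.10 with RPS, and the difference was -0.87 ± 0.79. It was -0.93 without CS 3 and RPS 2 together, but -1.41 without CS 3, -0.40 without RPS 2 and -0.36 without CS 1. The order of the arrays at this probe was close to that at the DUOX2 probes. Of these, only A_72_P773667 shares most of its sequence, but all DUOX2 probes were placed on the same transcript.

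The 4 DUOX2 probes differed by -0.71 ± 0.70 (A_72_P232907), -0.67 ± 0.78 (A_72_P444501), -0.87 ± 0.80 (A_72_P646089) and -0.80 ± 0.77 (A_72_P773667) on the log2 scale, and at each of them the diet groups overlapped. At A_72_P232907, the brightest in the colon, the log2 signals were 15.19, 14.42, 12.56 and 13.54 with CS and 13.86, 11.79, 14.14 and 13.08 with RPS. The highest and the lowest array, CS 1 and RPS 2, were 3.40 apart on the log2 scale. The within-diet SD was 1.09, larger than the size of the diet difference at this probe. Single arrays moved the DUOX2 differences by more than 1.5 times. Over the 4 probes they ran from -1.42 to -1.17 without CS 3, from -0.35 to -0.16 without RPS 2 and from -0.41 to -0.20 without CS 1. They were -0.91 to -0.69 with CS 3 and RPS 2 both left out.

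The 3 probes of DUOXA2, the maturation factor of DUOX2, differed by -1.32 ± 0.76 (A_72_P107996), -0.61 ± 0.73 (A_72_P492876) and -0.93 ± 0.82 (A_72_P593849). At A_72_P492876 the log2 signals were 14.65, 14.72, 12.21 and 12.82 with CS and 13.56, 11.70, 13.82 and 12.88 with RPS. As at DUOX2, CS 1 and CS 2 were the highest and RPS 2 the lowest. Over the 3 probes the differences ran from -1.84 to -1.08 without CS 3, from -0.86 to -0.18 without RPS 2 and from -0.94 to -0.26 without CS 1, and were -1.39 to -0.65 without both CS 3 and RPS 2.

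NOX1 lay the other way, with a difference of 0.74 ± 0.95. Its log2 signals were 7.13, 6.96, 3.57 and 6.77 with CS and 7.59, 5.06, 7.67 and 7.06 with RPS. CS 3 and RPS 2 were the 2 lowest arrays, and the difference was -0.10 without CS 3, 1.34 without RPS 2 and 0.49 without both.

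**Figure D1:**
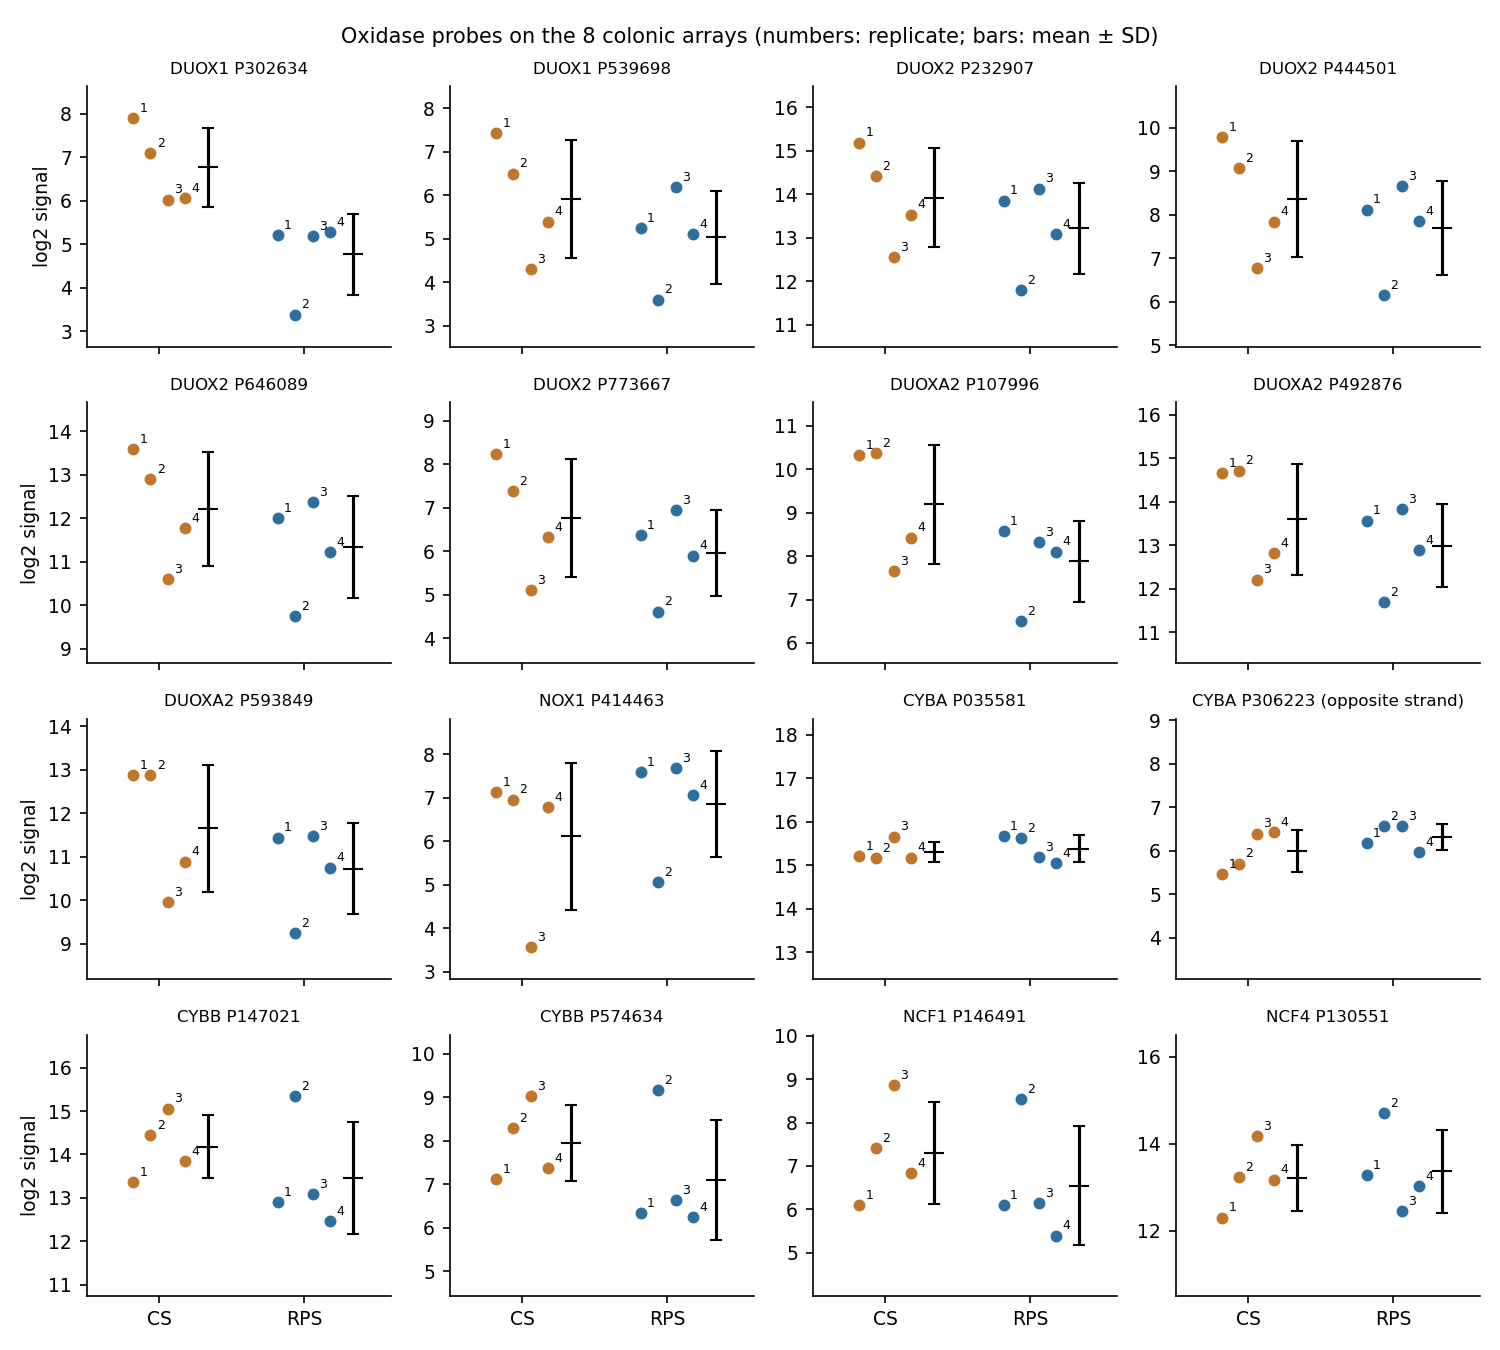
Log2 signal (y axis, normalized over the 8 colonic arrays, 6 log2 units in every panel) of the 16 oxidase probes with the CS and RPS diets. Each point is 1 array with its replicate number and the bars give mean ± SD (n = 4); only at DUOX1 A_72_P302634 do the 2 groups stay apart, from 6.02 upward with CS and from 5.28 downward with RPS.

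Of the phagocyte oxidase, the catalytic subunit CYBB was lower with RPS at both probes (-0.73 ± 0.67 at A_72_P147021 and -0.86 ± 0.75 at A_72_P574634), as was NCF1 (-0.75 ± 0.82), whereas NCF4 differed by 0.14 ± 0.56. The groups overlapped at all 4 probes. The log2 signals of CYBB A_72_P147021 were 13.37, 14.45, 15.05 and 13.85 with CS and 12.91, 15.34, 13.09 and 12.47 with RPS. RPS 2 was thus the highest colonic array and the other 3 RPS arrays were the lowest. Without CS 3 and RPS 2 the differences were -1.08 and -1.19 at the CYBB probes, -0.89 at NCF1 and 0.01 at NCF4. Without RPS 2 alone they were -1.36, -1.54, -1.41 and -0.30, and NCF4 was also below 0 without CS 1 (-0.16).

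NCF1 gave 6.09, 7.41, 8.86 and 6.83 with CS and 6.11, 8.54, 6.15 and 5.40 with RPS on the log2 scale. NCF4 gave 12.30, 13.23, 14.16 and 13.17 with CS and 13.27, 14.71, 12.44 and 13.03 with RPS. At both subunits CS 3 and RPS 2 were the 2 highest arrays.

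Macrophage marker genes (7 of 11 on the array, none of them below background) had summed signals of 44474 to 50451 on the CS arrays and 14810 to 33784 on the RPS arrays. C1QA, C1QB, C1QC and CD163, which encode complement subunits and a scavenger receptor, each had 1 probe lower with RPS past both thresholds. These were 4 of the 12 probes of this marker list, and 1.32% of all probes passed in this direction. CD14 and MRC1 of the same list had mean log2 signals of 8.16 and 8.53 with CS and 8.16 and 8.47 with RPS (normalized over 16 arrays). Neutrophil marker genes (8 of 11 on the array, of which S100A8, S100A9 and PGLYRP1 were not above background on every colonic array) summed to 3968 to 10120 with CS and 2068 to 5350 with RPS. Their mean log2 signals overlapped, from 5.23 to 7.33 with CS and from 5.89 to 6.85 with RPS. MMP9, the brightest of them, had a mean log2 signal of 12.51 with CS and 11.36 with RPS (normalized over 16 arrays), whereas S100A8, with 3.88 and 5.49, S100A9, with 2.79 and 3.53, and S100A12, with 4.85 and 5.24, lay the other way. The part of these cells in the CYBB and NCF1 values was not tested. In bulk tissue, fewer cells of a type and less RNA per cell cannot be told apart.

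CYBA, the shared subunit, differed little between the diets. Its sense probe gave 15.21, 15.17, 15.66 and 15.18 with CS and 15.68, 15.63, 15.18 and 15.05 with RPS, a difference of 0.08 ± 0.19. The opposite-strand probe differed by 0.32 ± 0.27. The within-diet SD of the sense probe (0.28 on the log2 scale) was below the median of the 26511 probes well above background on all colonic arrays (0.36), while the SDs of the other genes' probes, 0.87 to 1.48, were larger than those of 90.6% to 98.8% of them.

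**Figure D2:**
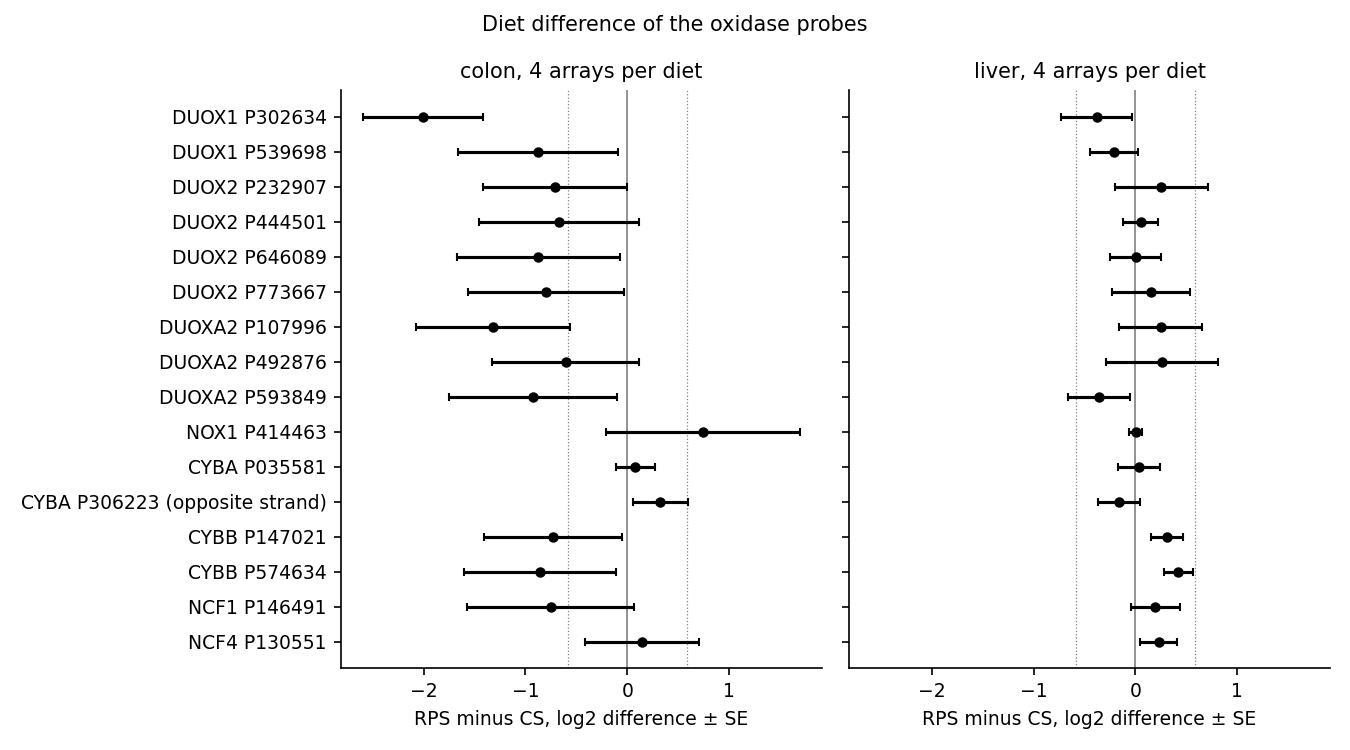
Difference of RPS minus CS on the log2 scale (x axis, point ± SE, n = 4 arrays per diet) of the 16 oxidase probes in colon and liver; dotted lines mark a 1.5-fold difference. In the colon the 9 probes of DUOX1, DUOX2 and DUOXA2 lie between -2.003 and -0.61, and in the liver all 16 probes lie between -0.38 and 0.42.

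The within-diet SD among colonic arrays was larger than the diet difference at all of these probes but DUOX1 A_72_P302634 and DUOXA2 A_72_P107996. On 8 arrays, signals of DUOX2 A_72_P232907 went along with the other DUOX2 probes (Pearson r 0.99 to 1.00), and with those of DUOXA2 at A_72_P492876 (Pearson r = 0.96, Spearman rho = 0.95, exact permutation p = 2.48e-04 and 0.00114, adjusted over 15 probes 6.2e-04 and 0.00285). After the diet means had been taken out, the latter r was 0.96, and it was 0.94 without CS 1 and RPS 2, the 2 arrays farthest from the DUOX2 median. Each diet alone has only 4 arrays, so no value within a diet is given. These 15 relations were chosen after the values had been seen. The permutations exchanged all 8 arrays freely, without regard to diet or slide, so their p-values only describe the relations.

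DUOX1 divided by probe. DUOX1 A_72_P539698, nearly identical to DUOX2 A_72_P773667, went along with DUOX2 A_72_P232907 (r = 0.98, rho = 0.98, exact permutation p = 1.24e-04 and 3.97e-04, adjusted 4.65e-04 and 0.00119). With A_72_P232907 it shares no run of 20 bases. The transcript read by A_72_P232907 also holds the site of A_72_P773667, so DUOX1 and DUOX2 signal cannot be told apart here. DUOX1 A_72_P302634 had r = 0.80 and rho = 0.60 (exact permutation p = 0.0173 and 0.132, adjusted 0.0288 and 0.18), and r was 0.91 after the diet means had been taken out and 0.80 without CS 3 and RPS 2. Without CS 1 and RPS 2, the arrays farthest from the DUOX2 median, r was 0.23 and the relation no longer held. NOX1 had r = 0.71 and rho = 0.67 (exact permutation p = 0.0518 and 0.0831, adjusted 0.0748 and 0.138), and r was 0.89 after the diet means had been taken out, 0.76 without CS 1 and RPS 2 and 0.11 without CS 3 and RPS 2.

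Of the phagocyte genes, NCF4 alone had an adjusted permutation p under 0.05 in its relation to DUOX2, by Pearson's r and not by rho. For NCF4 r was -0.89 and rho -0.71 (exact permutation p = 0.00392 and 0.0576, adjusted 0.00735 and 0.108). After the diet means had been taken out r was -0.91, and it was -0.67 without CS 1 and RPS 2 and -0.60 without CS 3 and RPS 2. For CYBB A_72_P147021 r was -0.53 and rho -0.36 (exact permutation p = 0.182 and 0.389, adjusted 0.182 and 0.417), and r was -0.76 after the diet means had been taken out and 0.42 without CS 3 and RPS 2. For NCF1 r was -0.60 and rho -0.45 (exact permutation p = 0.115 and 0.267, adjusted 0.144 and 0.334), and r was -0.81 after the diet means had been taken out and 0.31 without those 2 arrays. The sign of r at CYBB and NCF1 thus turned when CS 3 and RPS 2 were left out, the arrays with the highest B cell markers and the lowest epithelial markers, whose part in it was not tested.

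**Figure D3:**
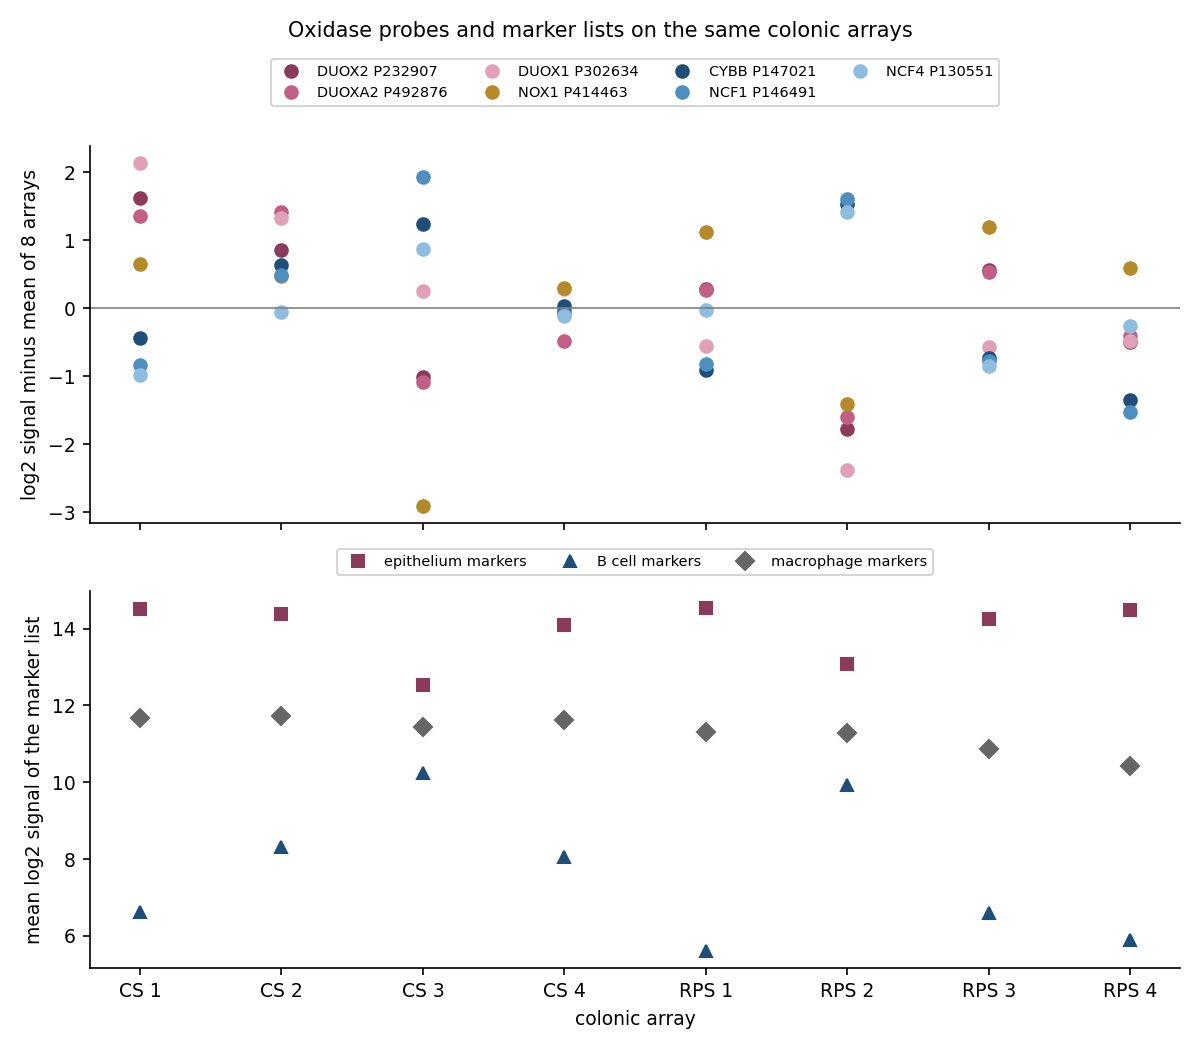
Upper panel, log2 signal of 7 oxidase probes minus the mean of each over the 8 colonic arrays; lower panel, mean log2 signal of epithelium, B cell and macrophage marker genes on the same arrays (x axis, diet and replicate number). On CS 3 and RPS 2, CYBB, NCF1 and NCF4 lie above their means and DUOX2, DUOXA2 and NOX1 below, where the B cell markers are highest (10.24 and 9.94) and the epithelium markers lowest (12.5 and 13.1). DUOX1 A_72_P302634 lies above its mean on CS 3 and below it on RPS 2.

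Named genes of like pattern were sought by the root mean square difference of log2 signals, each centred on its mean over the 8 colonic arrays, among 11321 named probes that all 8 of these arrays measured above background. Nearest to DUOX2 A_72_P232907 were DUOX1 at A_72_P539698 (0.25), BMP5 (0.28), DUOXA2 (0.28), DUOXA1 (0.30) and SLCO2A1 (0.31), where the DUOX2 probe itself varied by 1.01 around its mean. BMP5 is a secreted growth factor and SLCO2A1 a prostaglandin transporter. Nearest to DUOX1 A_72_P302634 were DUOXA2 (0.56), DUOXA1 (0.70), CA4 (0.73), LOC100157285 (0.73) and C4BPA (0.74), against a variation of its own of 1.28. Nearest to CYBB A_72_P147021 were CD72 (0.20), GNAI2 (0.23), TPBG (0.23), CD74 (0.23) and BCL2A1 (0.26), against 0.98. CD72 is a surface receptor of B cells, and CD74 is the invariant chain of MHC class II. The 8 arrays share their slides by diet, and these are values of likeness with no test.

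In the liver, none of the 12 probes passed both thresholds, where 3.56% of all probes did (0.00229% at an adjusted p under 0.05), and the smallest adjusted p among them was 0.85 (limma). The differences of the 16 probes lay between -0.38 and 0.42 on the log2 scale. The dual oxidases were at or near background there. DUOX1 A_72_P302634 was well above background on 2 of 8 liver arrays, DUOX1 A_72_P539698 and DUOX2 A_72_P444501 and A_72_P773667 on none, DUOX2 A_72_P232907 and A_72_P646089 on 6, and NOX1 on none. DUOXA2 was well above background on 8 of 8 at A_72_P492876, 7 of 8 at A_72_P593849 and none at A_72_P107996.

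DUOX1 A_72_P302634 gave liver signals of 2.78, 2.72, 3.17 and 2.36 with CS and 2.39, 1.65, 2.18 and 3.29 with RPS on the log2 scale (difference -0.38 ± 0.35, limma adjusted p = 0.85, exact two-sided permutation p = 0.371). The diet groups overlapped. At the DUOX2 probe A_72_P232907 they were 3.29, 3.34, 4.15 and 3.39 with CS and 3.40, 4.86, 2.75 and 4.17 with RPS (difference 0.25 ± 0.45, limma adjusted p = 0.937).

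The phagocyte genes were well above background on all 8 liver arrays, and each of their 4 probes was on average higher with RPS. CYBB A_72_P574634 gave 5.19, 5.21, 4.93 and 5.50 with CS and 5.67, 5.39, 5.66 and 5.79 with RPS. The groups overlapped by 1 pair of arrays, CS 4 and RPS 2, and the difference of 0.42 ± 0.14 was under the 1.5-fold threshold (limma adjusted p = 0.546, exact two-sided permutation p = 0.0571, where 4 arrays against 4 allow no less than 0.0286). The other CYBB probe differed by 0.31 ± 0.16, NCF1 by 0.20 ± 0.24 and NCF4 by 0.23 ± 0.18 (limma adjusted p = 0.719, 0.887 and 0.843). CYBA differed by 0.04 ± 0.20.

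Between the tissues, the epithelial oxidases, CYBA, CYBB and NCF4 were higher in colonic mucosa. Of the 12 probes, 10 were higher in colon at an adjusted p under 0.05 and a fold above 1.5, where 23.4% of all probes were (42.2% passed in either direction), and none was lower. The exceptions were NCF1 and the opposite-strand CYBA probe. The median difference of the 12 probes was 5.59 on the log2 scale and that of all probes 0.01. The values below were normalized over the 16 arrays, and the tissues lay on different slides.

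At DUOX2 A_72_P232907, well above background on 6 of 8 liver arrays, the colonic signals ran from 11.69 to 15.26 (median 13.72) and the liver signals from 3.05 to 5.13 (median 3.68) on the log2 scale. The tissues did not overlap, which was so in this direction at 14.6% of all probes, and the difference was 9.63 ± 0.45 (SE, n = 8 per tissue, limma adjusted p = 2.64e-10), a 793-fold higher signal (7.10 on the log2 scale with normexp, which brought low signals closer together and left the 10 calls in place). A_72_P646089 differed by 7.92 ± 0.45 (242-fold, limma adjusted p = 2.52e-09). Where a probe was not well above background on any liver array, the fold is a bound, taken against the dimmest signal that was well above background on each array or the probe's own where that was higher. By it, DUOX2 was at least 21.5-fold higher in colon at A_72_P444501 and at least 6.60-fold at A_72_P773667 (limma adjusted p = 1.19e-08 and 8.12e-07).

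DUOXA2 showed differences of 7.78 ± 0.49 at A_72_P492876 (11.59 to 14.78 in colon, 4.49 to 6.72 in liver) and 6.37 ± 0.47 at A_72_P593849 (limma adjusted p = 6.74e-09 and 3.96e-08), and was at least 30.7-fold higher at A_72_P107996. DUOX1 A_72_P302634 was higher in colon as well (limma adjusted p = 2.16e-05). Its fitted difference of 2.64 ± 0.36 is set against a liver level that only 2 of 8 arrays measured above background, and it was the one dual oxidase probe whose tissues overlapped. Its colonic signals ran from 3.08 to 7.68 and its liver signals from 1.96 to 3.58, and RPS 2 was the single colonic array within the range of the liver. DUOX1 A_72_P539698 was at least 3.51-fold higher (limma adjusted p = 3.24e-06), with the reservation on DUOX2 signal given above. NOX1, from 3.28 to 7.45 in colon and 1.03 to 1.18 in liver, was at least 7.16-fold higher (limma adjusted p = 7.83e-07).

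CYBA was bright in both tissues. Its sense probe ran from 15.12 to 15.73 in colon and from 12.40 to 13.11 in liver, a difference of 2.65 ± 0.14 (6.29-fold, limma adjusted p = 1.05e-09) with the tissues apart. The opposite-strand probe did not pass (0.09 ± 0.18, limma adjusted p = 0.702), so the 2 strands of this sequence gave different readings.

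Of the phagocyte subunits, CYBB was 4.69-fold higher in colon at A_72_P147021 (2.23 ± 0.37, 12.41 to 15.41 against 11.22 to 12.05, limma adjusted p = 1.43e-04) and 3.08-fold at A_72_P574634 (1.62 ± 0.40, limma adjusted p = 0.00343). NCF4 was 2.48-fold higher (1.31 ± 0.32, limma adjusted p = 0.00307). NCF1 differed by 0.93 ± 0.45 and did not pass (limma adjusted p = 0.1). CS 3 and RPS 2 were the 2 highest colonic arrays for each of these 4 probes. Without them the differences at the 4 probes, in the same order, were 1.78, 1.09, 0.92 and 0.32, and those of DUOX2 and DUOXA2 were 5.29 to 10.19. Within RPS alone CYBB A_72_P574634 did not pass (0.98, limma adjusted p = 0.196).

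Some probes of blood cell markers also differed between the tissues. Leukocyte markers were higher in colon at 7 of 8 probes and B cell markers at 2 of 3 with 1 lower, while macrophage markers were lower in colon at 7 of 12 probes and neutrophil markers at 5 of 11, with 2 higher. Over all probes, 23.4% were higher in colon and 42.2% passed in either direction. Several of the marker probes stand for the same gene. The part of these cells in the CYBB and NCF4 values was not tested.

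**Figure D4:**
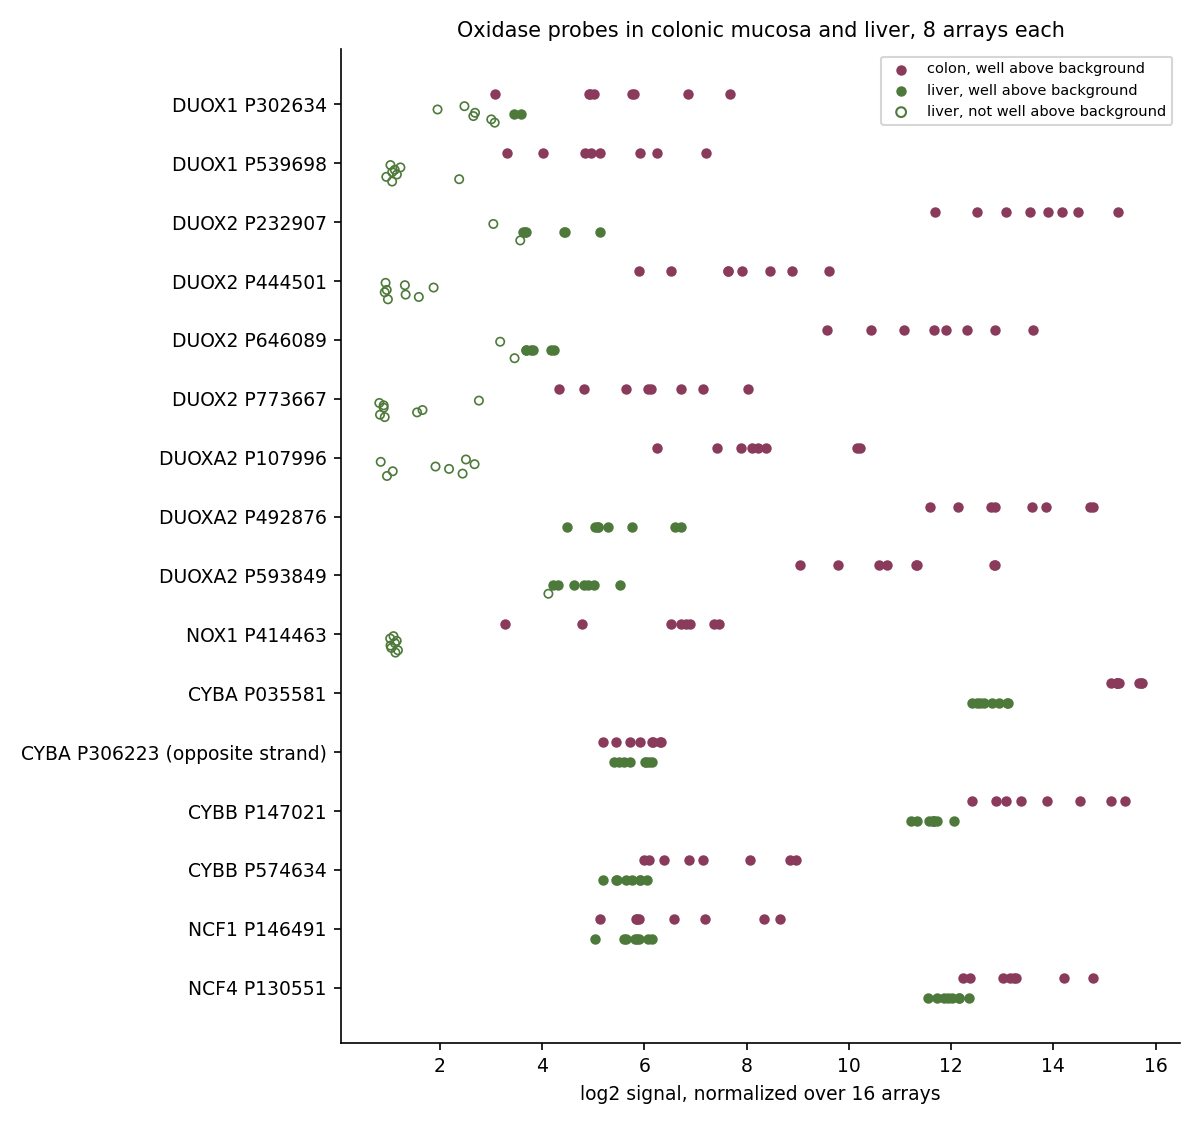
Log2 signal (x axis, normalized over 16 arrays) of the 16 oxidase probes on 8 colonic and 8 liver arrays; each point is 1 array, and open points were not well above background. The tissues lie apart at 8 of the 9 DUOX1, DUOX2 and DUOXA2 probes, at NOX1 and at the sense CYBA probe, and at 1 of the 4 phagocyte probes, CYBB A_72_P147021.

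The wider pathway was read from lists of other oxidase partners, haem peroxidases and enzymes that remove superoxide and peroxide, of which 20 of 37 genes had a probe. None of their 80 probes passed both thresholds with diet in the colon, where 2.94% of all probes did. In the liver 1 did, where 3.56% of all probes did. It was GPX3, a secreted glutathione peroxidase, which was higher with RPS (0.67 ± 0.26, limma adjusted p = 0.607). Between the tissues, DUOXA1 was at least 15.3-fold higher in colon (5.38 to 9.09 against 0.92 to 1.65, limma adjusted p = 1.21e-08). DUOXA1 was the only one of the 7 partner probes to pass, where 42.2% of all probes passed in either direction. In the colon it differed with diet by -0.91 ± 0.76.

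The removal enzymes divided, with 15 of 72 probes higher in colon and 44 lower (median -1.16). Over all probes, 23.4% were higher in colon and 42.2% passed in either direction. Many of the 72 probes stand for the same gene, so these are not counts of genes. GPX2, the glutathione peroxidase of the gut epithelium, was 354-fold higher in colon (8.47 ± 0.26, limma adjusted p = 2.6e-12). Catalase (CAT), the peroxisomal enzyme that breaks down hydrogen peroxide, was lower in colon by 5.40 to 5.85 on the log2 scale at the 8 probes with the largest differences. The single haem peroxidase probe, for MPO of neutrophils, was lower in colon (limma adjusted p = 9.38e-05) but was well above background on only 2 liver arrays and no colonic one. It lies outside the rule for named genes and is given because it was the whole list.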

How the data were processed

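Colonic mucosa and liver RNA of 16 samples was labelled with Cy3 and hybridized to one-colour Agilent porcine arrays. The authors deposited the intensity values of every spot as Feature Extraction 10.7 wrote them, background-subtracted and not normalized between arrays, and a table of log2 values that they had quantile normalized. The genome build behind the array is not given in the sources used here, so no coordinates are printed, and the RefSeq table (Sscrofa11.1) served for names and gene order alone. Here control spots were dropped and spots flagged by the scanner as outliers treated as missing. Quantile normalization of the log2 signals ran over a tissue's 8 arrays (diet) or all 16 arrays (tissue), and spots of 1 probe were averaged. No filter on dim probes was applied. Each comparison was fitted over all 43603 probes with limma 3.58.1 in R 4.3.3 (lmFit and eBayes, no covariates), with Benjamini-Hochberg adjustment. For diet, the study's thresholds were used (unadjusted p under 0.05, fold above 1.5). For tissue, an adjusted p under 0.05 and the same fold were required. The procedure was tested on simulated data.

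Probes of a gene were kept apart. The members and lists were chosen with earlier results of these data known. A gene of the B cell list and a gene of the partner list are not reported here and were left out of every value of their lists. Named genes were all member probes; of the pathway lists, probes past the threshold that were measured above background on every array of at least 1 group, at most the 10 with the largest difference per comparison; and the 5 genes nearest in pattern to DUOX1, DUOX2 and CYBB. Lists with no probe named (surface colonocyte, smooth muscle) served as checks and for the array values given above. Of colonocyte probes 8 of 8 were higher in colon, as were 8 of 13 smooth muscle probes, with 3 lower (23.4% of all probes were higher). The labels do not say whether a colon and a liver sample with the same number came from 1 pig. Symbols were matched to RefSeq by name for 10378 probes, older name for 465, LOC number for 2200 and accession for 999. Another 362 kept the symbol of the file and 29199 had none. The number of arrays and the share of probes above background limit the precision. Alternatives were 75th percentile scaling, normexp (offset 50), the authors' log2 values, outlier spots kept, dim probes left out, an intensity trend, the methods' t-test, blocks, fits over 16 arrays, single diets and each array left out. Leaving out 2 colonic arrays was added after the values were seen. Figures were drawn with matplotlib 3.10.9.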

Additional observations from a re-analysis of the deposited data

Results flagged for a closer look

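Each oxidase probe was looked at in each of the 4 groups for an array lying far outside the other 3 (Dixon's criterion, 64 groups in all). Chance gives such a gap in about 1 of 20 independent groups. The groups here share their arrays and are not independent, and 7 gaps were found. In the colon these were DUOX1 A_72_P302634 on RPS 2 (log2 signal 3.38, next value 5.19), NOX1 on CS 3 (3.57, next 6.77), the sense CYBA probe on CS 3 (15.66, next 15.21) and CYBB A_72_P574634 on RPS 2 (9.17, next 6.64). All 4 fell on the 2 colonic arrays with the highest B cell markers. In the liver they were DUOX1 A_72_P539698 on CS 2 (2.07), DUOX2 A_72_P232907 on CS 3 (4.15) and DUOX2 A_72_P773667 on RPS 4 (2.47), of which the first and the last were not well above background.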

How the results depend on the processing

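DUOX1 A_72_P302634 was past both colonic thresholds under all 19 alternatives, with log2 differences from -2.25 (without CS 3) to -0.95 (normexp). The probe was chosen with this contrast known and the alternatives reuse the same arrays, so this is a description and carries no test. The colonic count of 1 of 12 probes became 2 without CS 3, where DUOXA2 A_72_P107996 was added (-1.84), and lay between 1 and 2 with single arrays left out. The liver count lay between 0 and 1, with DUOXA2 A_72_P593849 added without CS 1 (-0.61) and DUOX1 A_72_P302634 without RPS 4 (-0.68). In the wider pathway the liver count of 1 became 3 with 75th percentile scaling and 2 with normexp. Between the tissues 10 of 12 probes stayed called under every alternative run, and only CYBB A_72_P574634 lost its call, within RPS. NCF1 gained one without colonic CS 1 (1.134, limma adjusted p = 0.0459) or RPS 4 (1.12, limma adjusted p = 0.0493). With normexp the DUOX1 differences were 0.77 and 0.65, against 2.64 and 3.95.

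Directions reversed for small differences, none of them called. With single liver arrays left out the diet difference in the liver ran from -0.31 to 0.042 at DUOX1 A_72_P539698, and at DUOX2 from -0.10 to 0.60 (A_72_P232907), -0.084 to 0.13 (A_72_P444501), -0.16 to 0.20 (A_72_P646089) and -0.25 to 0.31 (A_72_P773667). It ran from -0.066 to 0.71 at DUOXA2 A_72_P492876, -0.016 to 0.021 at NOX1, -0.078 to 0.17 at CYBA A_72_P035581 and -0.017 to 0.36 at NCF1. With normexp it was -0.022 at DUOX2 A_72_P646089, -0.0063 at NOX1 and -0.040 at CYBA A_72_P035581. The opposite-strand CYBA probe differed between the tissues by -0.16 within CS and by -0.023 without colonic CS 3 and RPS 2. The cause of these changes was not tested.

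Over all probes, the colonic count of 1283 became 180 with normexp, 1968 with 75th percentile scaling (69% higher with RPS, against 55.2%), 780 with dim probes left out, 2385 without CS 3 and RPS 2 and 2635 without RPS 2. The liver count of 1554 became 221 with normexp and 965 with dim probes left out, and the tissue count of 18379 became 10897 with normexp. The methods' t-test gave 964 in the colon and 1147 in the liver.

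With the replicate number as a block, the counts were 1 in the colon, 0 in the liver and 10 between the tissues, as without it. The deviations of same-numbered arrays correlated by -0.51 to 0.55 between the diets for colonic arrays, and by -0.16 to 0.11 for liver arrays. Between colon and liver they correlated by 0.16 to 0.33 with CS, where all 4 pairs were above 0.1, and by -0.08 to 0.07 with RPS. The numbers were not taken to pair the samples as a whole. The DUOX, DUOXA2 and NOX1 probes that no liver array measured above background give bounds only.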
